A study of Mus musculus with 4 samples.

Results

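The muscle genes examined here were 46 named genes: 10 myogenic regulators, 4 FOXO factors, 3 genes of atrophy and growth control, 2 membrane proteins of myoblast fusion, and genes of the contractile apparatus and its surroundings (8 of the thick filament, 10 of the thin filament, 4 of the Z disc, titin and cytoskeleton, and 5 of energy supply, calcium handling and the membrane). They were chosen by name, with earlier results of these data known, and 46 of 46 matched one of the 21883 protein-coding genes on assembled chromosomes of the RefSeq table for GRCm38.p6. The other 21837 genes served as the background. The measurement was chromatin immunoprecipitation with sequencing (ChIP-seq) for the transcription factor Deaf1 in C2C12, a cell line of mouse myoblasts, the proliferating precursors of muscle fibres. Of the 4 libraries, 2 were precipitated with an antibody against Deaf1 and 2 were input chromatin that saw no antibody, all from cells grown in medium with serum, with no genotype, treatment or differentiation step named. A gene was called bound when a peak touched the 1 kb on either side of a start or end of its annotated span.

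Skeletal muscle precursors are set aside by the paired-box factors Pax3 and Pax7. They are driven into the muscle lineage by Myf5, Myod1, Myog and Myf6, which act with the Mef2 factors on genes of the sarcomere. FOXO factors are held out of the nucleus by insulin and AKT signalling, and in wasting muscle they switch on the ubiquitin ligases Fbxo32 (atrogin-1) and Trim63 (MuRF1). Deaf1 binds DNA through its SAND domain, which recognises TTCG sequences. The series title places Deaf1 under the control of FOXO factors and links it to autophagy in muscle regeneration.

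Depth was read at the peak summits, as the number of ChIP fragments stacked there. On assembled chromosomes replicate 1 had 1854 peaks with a median of 22 fragments, replicate 2 had 3106 peaks with a median of 23, and the combined list of the pair had 1545 regions. The lowest called summit held 10 fragments in each library, so a gene without a peak is one at which no summit passed the peak caller, not one shown to be free of Deaf1. With 1 group of 2 ChIP libraries and no second condition, no test between groups exists, and intervals on fragments cover counting error only. The files hold no expression values, so neither the labelled cell type nor the activity of any gene could be checked.

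Deaf1 was found at very few of the muscle genes. A region of the combined list lay at an end of 1 of the 46 (2.17%), Myl4, whereas 7.0% of the other protein-coding genes had one, a share that would amount to 3.2 of 46 genes. Replicate 1 read alone gave the same gene (1 of 46 against 7.54% of other genes). Replicate 2 read alone gave Myl4 and Foxo4 (2 of 46, 4.35%, against 11.3%). No myogenic regulator, fusion protein, atrophy gene, thin-filament gene or Z disc gene had a peak at an end in any of the 3 lists. Neither did any gene of the energy, calcium and membrane group. The difference from the background amounts to 2 or 3 genes in each list, and genes are not replicates, so these shares are given as a description.

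Myl4 encodes the essential myosin light chain of embryonic muscle and of the atrium. Its span on GRCm38, chr11:104546017-104587215, held 12 peaks of replicate 1, 15 of replicate 2 and 4 regions of the combined list. Of all 21883 genes, Myl4 ranked 3 by the number of replicate 1 peaks in its span, shared with Ski, behind Ppm1h and Extl3. By replicate 2 peaks it ranked 4, behind Ppm1h, Extl3 and Mark2. In the combined list its rank was 6, and 11 genes, Myl4 included, held at least as many regions. Among the 46 muscle genes it was the only one with a peak anywhere in the span. Of these peaks, 4 of 12 in replicate 1 and 2 of 15 in replicate 2 also touched the span of a neighbouring gene, Cdc27. Replicate 2 had further peaks in the Cdc27 span outside that of Myl4, from chr11:104538804 to 104545906, and replicate 1 had none there. The dense peaks of replicate 2 were thus not confined to Myl4.

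The main peak at Myl4 sat on a start that the gene shares with a neighbour. The annotated start of Myl4 is at position 104550663 on the plus strand. Cdc27, which encodes a subunit of the anaphase-promoting complex and is no muscle gene, starts 43 bp away at 104550620 on the minus strand, and the 2 annotated spans overlap by 4604 bp. In replicate 1 the main peak spanned chr11:104547192-104551806, and its summit lay 9 bp from the Cdc27 start and 52 bp from the Myl4 start. In replicate 2 it spanned chr11:104547117-104553737, with its summit 60 bp from the Cdc27 start and 103 bp from the Myl4 start. Both summits were thus nearer to the start of Cdc27, by 43 bp, and the peak cannot be given to 1 of the 2 genes.

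This main peak was strong in both libraries. Its summit held 117 fragments in replicate 1 (95% exact Poisson interval 96.8 to 140) over a local background of 2.64, and 143 fragments in replicate 2 (121 to 168) over 4.84. The deposited fold enrichment, the peak caller's ratio of ChIP to local background, was 32.5 in replicate 1 and 24.7 in replicate 2, a mean of 28.6 ± 5.5 (SD, n = 2). By fold it was number 18 among the 1854 peaks of replicate 1 and number 39 among the 3106 of replicate 2. The fragment counts overlap within their intervals, while the fold was lower in replicate 2, where the background was higher.

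**Figure D1:**
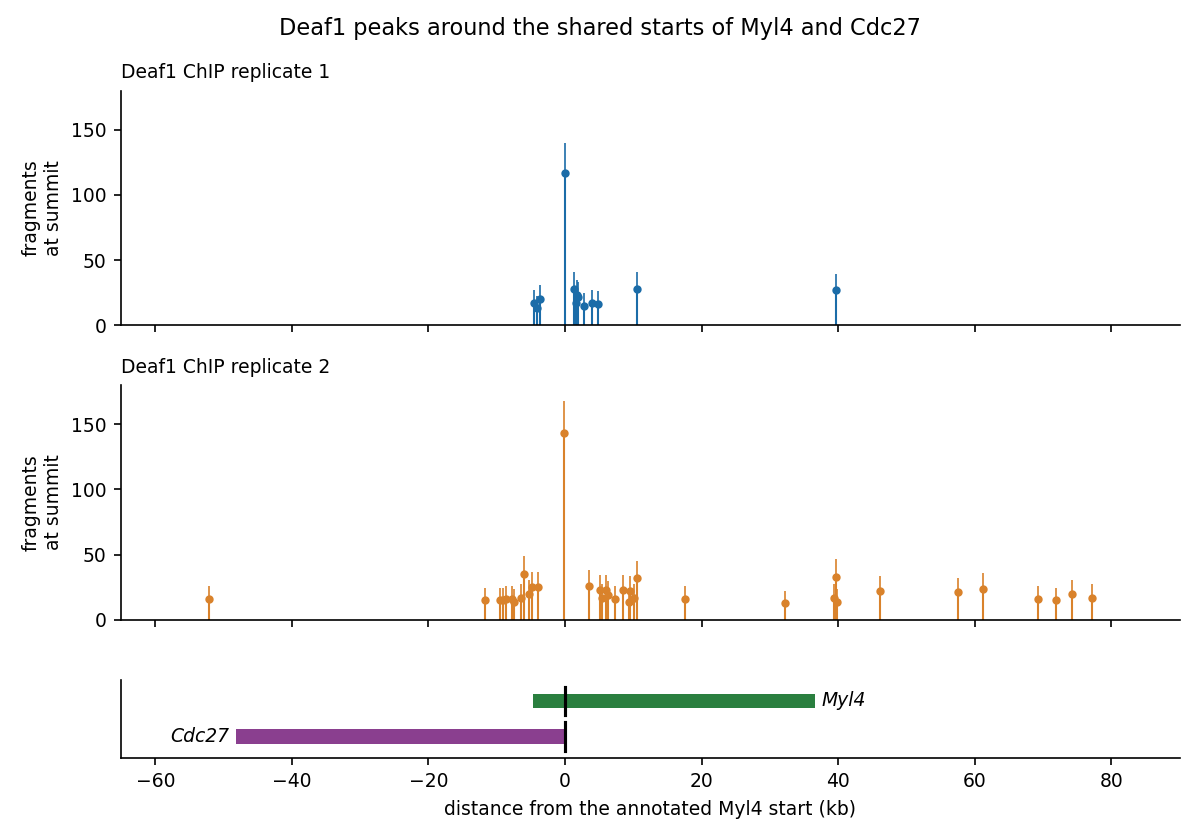
Fragments at the summit of each Deaf1 peak (vertical axis; points with 95% exact Poisson intervals) against distance in kb from the annotated Myl4 start (horizontal axis), for replicate 1 and replicate 2, with the annotated spans of Myl4 and Cdc27 as bars and their starts as black ticks. The summits of 117 and 143 fragments stand at the shared start, and the other peaks in the Myl4 span reach at most 28 and 32 fragments.

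The promoter windows of the pair are shown because they hold the summits. Each runs from 250 bases before to 50 after the annotated start, read 5′ to 3′ on the gene's own strand (RefSeq, GRCm38.p6), and capitals mark TTCG or CGAA, which is TTCG on the opposite strand. The Myl4 window is chr11:104550413-104550712 on the plus strand, and the Cdc27 window is chr11:104550571-104550870 on the minus strand.
Myl4: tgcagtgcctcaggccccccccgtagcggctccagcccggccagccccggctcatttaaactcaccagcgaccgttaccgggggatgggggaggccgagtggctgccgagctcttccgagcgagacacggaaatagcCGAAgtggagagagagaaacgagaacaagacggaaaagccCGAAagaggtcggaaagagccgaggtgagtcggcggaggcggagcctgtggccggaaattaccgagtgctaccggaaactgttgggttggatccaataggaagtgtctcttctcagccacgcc
Cdc27: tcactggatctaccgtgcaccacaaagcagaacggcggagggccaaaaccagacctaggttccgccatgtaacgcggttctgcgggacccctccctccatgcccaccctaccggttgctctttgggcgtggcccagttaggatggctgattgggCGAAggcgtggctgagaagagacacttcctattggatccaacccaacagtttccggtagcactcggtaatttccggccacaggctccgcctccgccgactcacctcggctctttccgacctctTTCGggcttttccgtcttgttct
Each window held 2 copies of the sequence. The copy at chr11:104550590-104550593 lies in both windows, 18 bp from the replicate 1 summit and 30 bp from the replicate 2 summit. A second copy in the Myl4 window, at chr11:104550550-104550553, was 7 bp from the replicate 2 summit and 58 bp from the replicate 1 summit. These matches describe the letters under the peak and do not show which bases Deaf1 contacts.

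The remaining peaks in the Myl4 span were weak. In replicate 1 the other 11 held 13 to 28 fragments with a median of 17, and their folds ran from 3.54 to 7.33. In replicate 2 the other 14 held 13 to 32 fragments with a median of 20.5, and their folds ran from 2.57 to 6.92. The strongest repeat among them was the region chr11:104560958-104561347, whose summits lay 10.5 kb downstream of the Myl4 start in both libraries, with folds of 7.33 and 5.66 (mean 6.49 ± 1.18, SD, n = 2). With gaps of at most 20 kb, the peaks around the shared start formed a run of 12 peaks over 15.2 kb in replicate 1 and of 35 peaks over 89.1 kb in replicate 2. The dense cluster was thus much wider in the library with more peaks.

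The combined list scored the Myl4 regions low. This list carries an irreproducible discovery rate (IDR), on a scale where a score of 540 stands for an IDR of 0.05. Of all 1545 regions, 608 reached that score. The region with the main peak, chr11:104547117-104553737, merged 6 peaks of replicate 1 with 1 of replicate 2 and had the lowest score, 121 (IDR 0.513), as did 374 regions in all. The other 3 regions in the span had scores of 121, 121 and 303. A score of 121 was also that of the regions nearest to Myod1, Mef2a, Foxo1, Foxo3, Trim63, Mstn, Myh7, Tpm2, Actn2, Actn3, Des and Ryr1. The regions nearest to the remaining muscle genes scored higher. Counting only regions with a score of at least 540, none of the 46 muscle genes was bound, against 3.14% of other genes. The region that met the rule on gene ends was also not the strongest one: it covered the upstream limit of the span, chr11:104545981-104547059, with folds of 5.78 and 5.34 and 20 and 25 fragments. The main region began 1100 bp inside that limit, and the span in the table begins 4.65 kb upstream of the annotated start. Measured from annotated starts, which the promoter table gave for 34 of the 46 genes, Myl4 was again the 1 bound gene in the combined list, against 7.32% of other genes. It was also the 1 bound gene in replicate 1 (against 7.83%) and in replicate 2 (against 11.9%); Foxo4 is not among the 34.

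The FOXO factors were examined next, since the title names them upstream of Deaf1. Foxo4, on the X chromosome at chrX:101254261-101260873, had a peak in replicate 2 and none in replicate 1. That peak, chrX:101254005-101254100, lay 161 bp outside the span, held 13 fragments (95% exact Poisson interval 6.92 to 22.2) over a background of 2.09, and had a fold of 4.53 and a q of 0.00028. By fold it was number 2541 of 3106. In replicate 1 the nearest peak to Foxo4 was 13.1 kb away, 40 bp from an end of Med12, a subunit of the Mediator complex, with 39 fragments and a fold of 14.3. The same Med12 site had 67 fragments and a fold of 14 in replicate 2. The repeated site in this neighbourhood therefore lay at Med12, and the Foxo4 peak was not repeated.

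Foxo1, Foxo3 and Foxo6, the other members of the family, had no peak nearby. The nearest replicate 2 peak was 992 kb from Foxo1, 731 kb from Foxo3 and 928 kb from Foxo6. In replicate 1 the corresponding distances were 1114 kb, 731 kb and 946 kb. The promoter windows of Foxo1 (chr3:52268087-52268386, plus strand) and Foxo3 (chr10:42276646-42276945, minus strand) are shown as CpG-rich starts without a peak, with the same capitals.
Foxo1: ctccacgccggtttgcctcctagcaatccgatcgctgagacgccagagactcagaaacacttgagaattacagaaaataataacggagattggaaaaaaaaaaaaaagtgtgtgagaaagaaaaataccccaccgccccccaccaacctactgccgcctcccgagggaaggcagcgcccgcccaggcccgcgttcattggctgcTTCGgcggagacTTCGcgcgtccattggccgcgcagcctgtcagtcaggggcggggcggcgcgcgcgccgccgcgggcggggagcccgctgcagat
Foxo3: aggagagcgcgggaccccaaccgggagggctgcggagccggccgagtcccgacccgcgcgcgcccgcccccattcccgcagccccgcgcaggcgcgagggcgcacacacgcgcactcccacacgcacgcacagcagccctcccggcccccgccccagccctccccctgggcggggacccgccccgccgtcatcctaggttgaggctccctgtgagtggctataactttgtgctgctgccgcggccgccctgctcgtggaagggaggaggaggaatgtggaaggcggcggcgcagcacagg
The Foxo1 window held 2 copies of TTCG and had a CpG observed/expected ratio of 1.10, higher than the 0.89 of Myl4, while the Foxo3 window held no copy and had a ratio of 0.83. Foxo1 thus had as many copies as Myl4 and no peak.

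The atrophy ligases, targets of FOXO factors in wasting muscle, had no peak at an end. Fbxo32 was 40.5 kb from the nearest combined region, which lay 275 bp from an end of Atad2 and had 28 fragments in replicate 1 and 39 in replicate 2. A weaker peak of replicate 2 was closer to Fbxo32, at 34.5 kb, with 24 fragments and its summit 46 bp from an end of Wdyhv1. Trim63 was 502 kb from the nearest combined region and 206 kb from the nearest replicate 2 peak. Mstn, which encodes the growth inhibitor myostatin, was 246 kb from the nearest replicate 2 peak and 2020 kb from the nearest combined region. The Trim63 window (chr4:134314870-134315169, plus strand) is shown as a CpG-poor start, with a CpG ratio of 0.29 and 1 copy of the sequence.
Trim63: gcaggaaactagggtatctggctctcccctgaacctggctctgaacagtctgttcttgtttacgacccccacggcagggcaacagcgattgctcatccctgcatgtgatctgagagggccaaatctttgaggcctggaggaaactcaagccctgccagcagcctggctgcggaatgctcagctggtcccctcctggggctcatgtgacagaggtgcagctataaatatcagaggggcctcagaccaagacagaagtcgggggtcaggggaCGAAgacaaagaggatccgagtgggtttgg

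Among the 10 myogenic regulators, Mef2d, which cooperates with the Myod1 family, had the closest peaks. Replicate 1 had 1 peak 5.97 kb from the gene, chr3:88178066-88178161, with 15 fragments and a fold of 5.71. Replicate 2 had 1 peak 5.64 kb away, chr3:88177730-88177826, with 24 fragments and a fold of 5.14. The 2 peaks do not overlap, so no combined region stood there, and the nearest one was 212 kb away.

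For the other 9 regulators the closest peak was one of replicate 2, 173 kb from Six4. Over all 10 regulators the median distance to a combined region was 758 kb. It was 351 kb over the other protein-coding genes, with an upper quartile of 1296 kb, so most of the distances below are within the ordinary range. The nearest combined region was 417 kb from Myod1, the factor that can turn fibroblasts into muscle, and it lay 304 bp from an end of Hps5, with 15 and 27 fragments. Myog, needed for the fusion step of differentiation, was 680 kb from its nearest region, at Snrpe. For the neighbouring genes Myf5 and Myf6 the nearest region was the same one, 845 and 837 kb away near Pawr. Pax7, the marker of satellite cells, was 356 kb from a region at Ubr4, and Pax3 was 1579 kb from one at Mrpl44. The genes farthest away in this group were Mef2a in replicate 1 (11.5 Mb) and Pax3 in replicate 2 (1.58 Mb).

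Both fusion proteins lacked a peak at an end. Mymk (myomaker) was 97 kb from the nearest peak in each library. Mymx (myomixer) was 37 kb from the nearest peak in replicate 2 and 509 kb from the nearest in replicate 1, and the replicate 2 peak lay 22 bp from an end of Slc35b2.

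The contractile genes other than Myl4 had no peak at an end. The skeletal myosin heavy chains Myh1, Myh2, Myh3, Myh4 and Myh8 lie in 1 cluster and share their nearest region, chr11:67052518-67052696. Its replicate 2 summit lay 8 bp from an end of Sco1, a cytochrome oxidase assembly factor. Its replicate 1 summit lay 3 bp from an end of another gene, Adprm. That region had 26 fragments and a fold of 9.25 in replicate 1, and 40 fragments and a fold of 13.3 in replicate 2. Myh3, the embryonic chain, was closest to it at 25.6 kb, and Myh8, the perinatal chain, farthest at 224 kb. Myh7, the slow chain, was 20.8 kb from a combined region at Ngdn.

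For the thin filament, the genes closest to a combined region were Tnnc2, the fast troponin C, 25.1 kb from a region at Zswim3, and Tnnc1, the slow and cardiac troponin C, 39.6 kb from a region 112 bp from an end of Bap1. The Bap1 region had folds of 12.2 and 12.1 and 35 and 37 fragments. Acta1, skeletal actin, was 54.4 kb from a strong region at Nup133, a nuclear pore gene, with folds of 19.7 and 15.2 and 58 and 73 fragments. Tpm2, a tropomyosin, was 38.6 kb from a peak of replicate 2 at Tln1 that replicate 1 did not repeat, and 55.2 kb from a combined region.

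Des, the intermediate filament protein desmin, was 42.5 kb from a combined region 4 bp from an end of Dnpep. Ryr1, the calcium release channel, was 21.5 kb from a region at Eif3k. Ckm, muscle creatine kinase, was 183 kb from the nearest combined region, at Clasrp. Dmd, dystrophin, had ends 7.14 Mb from any peak of either library.

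Across the 45 genes without a combined region at an end, the nearest regions were 39 distinct ones, and 35 of these (89.7%) had their replicate 2 summit within 1 kb of an end of another protein-coding gene. Over all 1545 combined regions, the share with the summit that close to any gene end was 79.5%. The 4 regions without such an end were those nearest to Trim63, Tpm1, Actn3 and Dmd.

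**Figure D2:**
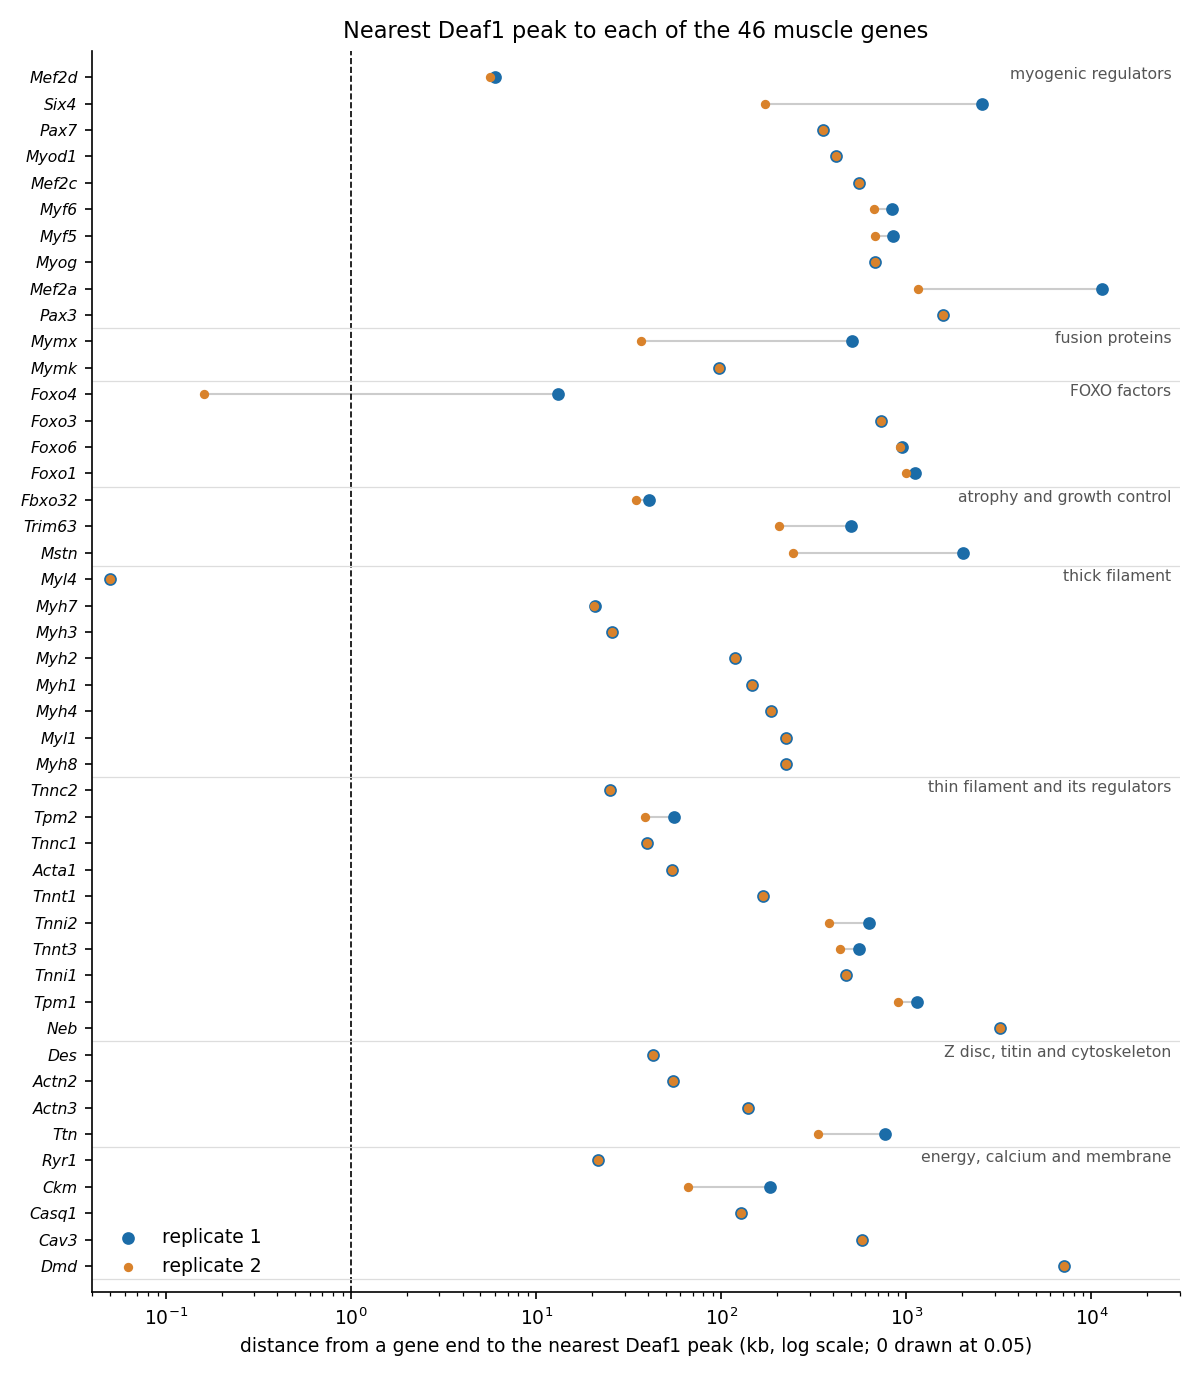
Distance in kb (horizontal axis, log scale) from an end of each of the 46 muscle genes (rows, grouped by role) to the nearest Deaf1 peak of replicate 1 (large points) and replicate 2 (small points). The dashed line marks 1 kb: Myl4 lies left of it in both libraries and Foxo4 in replicate 2, and the next gene, Mef2d, stands at 5.64 to 5.97 kb.

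The muscle genes did not lie in neighbourhoods without Deaf1. Their median distance to a combined region was 290 kb, and that of the other genes was 351 kb. Replicate 1 gave 290 and 315 kb, and replicate 2 gave 195 and 173 kb. The shares parted at short range: within 20 kb, 2 of 46 muscle genes (4.35%) had a combined region, against 13.7% of others. Within 100 kb the shares were 28.3% and 28.9%, and within 500 kb 56.5% and 56.5%. Genes of 1 cluster share their nearest region, so the 46 distances are not independent.

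**Figure D3:**
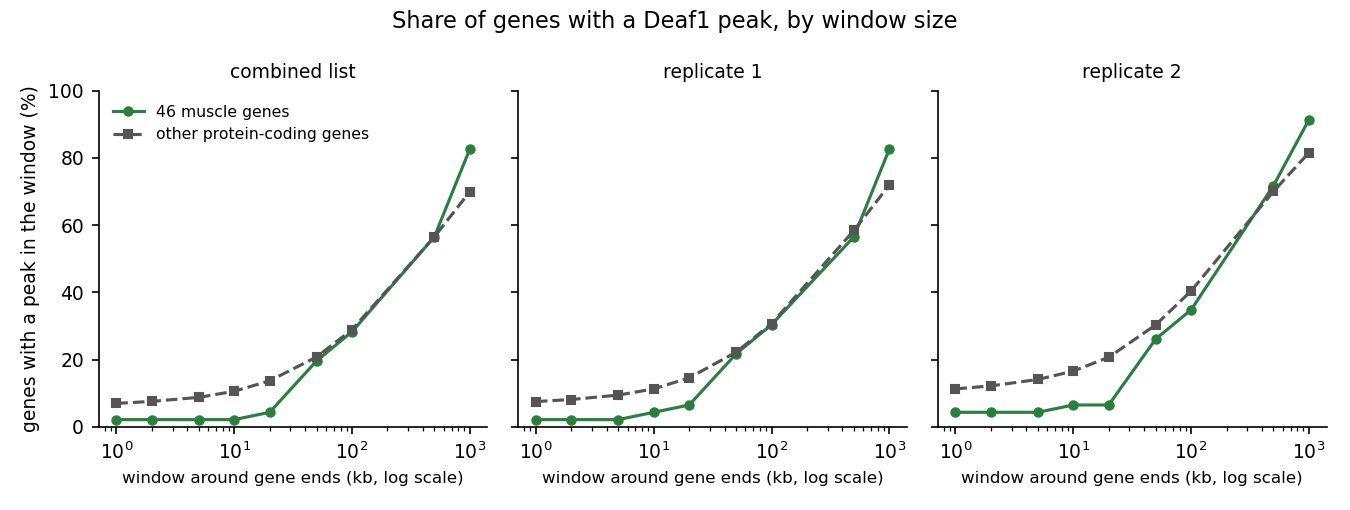
Percent of genes with a Deaf1 peak (vertical axis) inside windows of 1 to 1000 kb around gene ends (horizontal axis, log scale), for the combined list and each replicate; solid lines stand for the 46 muscle genes and dashed lines for other protein-coding genes. In the combined list the shares are 2.17% and 7.0% at 1 kb, and 28.3% and 28.9% at 100 kb.

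The longest muscle genes held no peak in their bodies. A combined region lay anywhere in the span of 1 of the 46 muscle genes, against 6.68% of other genes. The corresponding shares of other genes were 6.83% for replicate 1 and 10.5% for replicate 2, and 1 muscle gene, Myl4, was counted in each. Dmd spans 2390387 bp, Ttn (titin) 278578 bp and Neb (nebulin) 202159 bp, each without a peak of either library. A span over 100 kb was no advantage in the background: 3.47% of the 2422 other genes of that length held a combined region, against 8.86% of those of 10 to 30 kb, and 6 muscle genes were over 100 kb. Replicate 1 had a peak in 3.80% of other genes over 100 kb, and replicate 2 in 6.61%. With only 6 muscle genes of that length, the absence of a peak cannot show a difference from these shares.

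The promoters of the muscle genes were poorer in CpG, by median, than those of the genes with a Deaf1 peak. The CpG observed/expected ratio compares the number of CpG pairs with the number that the C and G content would give. Its median was 0.40 over the 34 muscle genes with a promoter window, 0.61 over 17457 other genes, and 0.87 over the 1277 of those with a combined region within 1 kb of a start. The G and C content itself differed little, with medians of 58.3%, 57.0% and 61.0%. Contractile and related genes had a median ratio of 0.34 (23 genes), and the regulators, FOXO and atrophy genes 0.61 (11 genes).

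In the background, genes with a higher ratio more often had a Deaf1 peak. The genes were split into 4 classes of nearly equal size by their most CpG-rich annotated start, from class 1 (lowest ratio) to class 4. In class 1, 1 of 4365 other genes (0.0229%) had a combined region at a start. The share was 2.53% in class 2, 10.2% in class 3 and 16.5% in class 4. Of the muscle genes, 8 fell in class 1, among them Ckm, Casq1 (calsequestrin), Myh7, Tnnc1 and Tnnc2. Another 17 fell in class 2, among them Acta1, Des, Myog, Pax7, Trim63 and Ttn. There were 6 in class 3 (Foxo3, Mef2c, Mef2d, Myh2, Six4 and Tpm1) and 3 in class 4 (Foxo1, Mef2a and Myl4). Most muscle genes thus sat in classes 1 and 2, where few genes of any kind were bound, and the bound gene came from class 4. Whether the low count of bound muscle genes follows from this was not tested.
The Tnnc1 window (chr14:31208062-31208361, plus strand), with 1 CpG and a ratio of 0.04, is shown as a start of class 1.
Tnnc1: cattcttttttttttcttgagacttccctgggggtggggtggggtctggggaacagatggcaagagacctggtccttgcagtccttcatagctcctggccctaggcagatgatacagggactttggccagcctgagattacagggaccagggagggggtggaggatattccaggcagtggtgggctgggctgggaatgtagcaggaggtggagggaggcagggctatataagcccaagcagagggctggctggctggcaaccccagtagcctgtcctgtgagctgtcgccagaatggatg

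**Figure D4:**
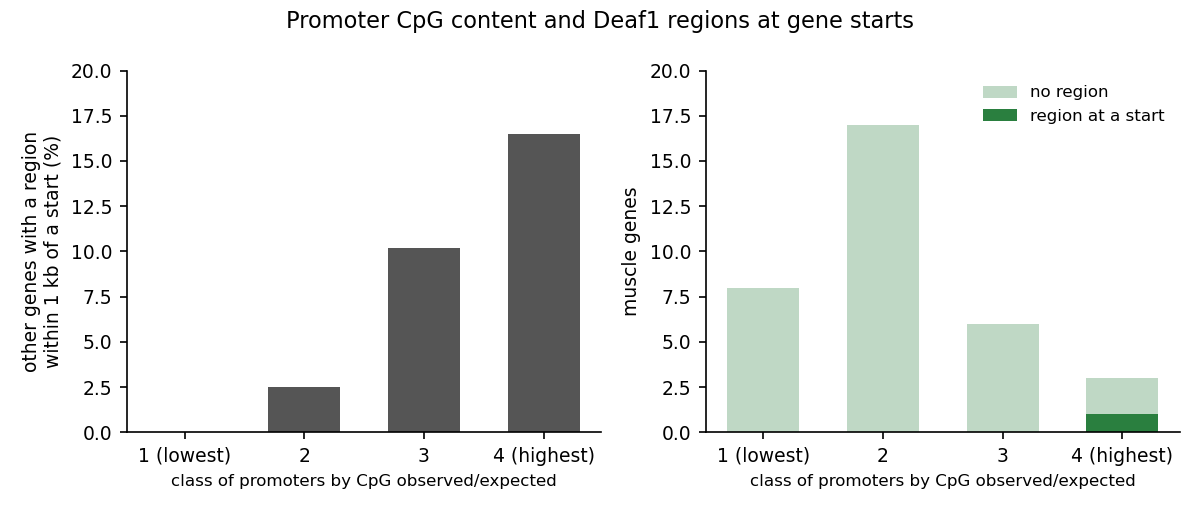
Left, percent of other protein-coding genes with a combined region within 1 kb of an annotated start (vertical axis), by class of the CpG observed/expected ratio (horizontal axis); right, number of muscle genes in each class, with the bound gene in dark. The background share goes from 0.0229% in class 1 to 16.5% in class 4, while 8, 17, 6 and 3 muscle genes fall in classes 1 to 4.

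The sequence TTCG, counted on either strand and in any overlap, was also counted. At least 1 copy stood in a promoter window of 16 of the 34 muscle genes (47.1%), against 52.1% of all other genes and 74.3% of those bound at a start. With at least 2 copies the shares were 26.5%, 22.3% and 45.3%. The 9 muscle genes with 2 or more copies include Myl4, but also Foxo1, Acta1, Pax7, Six4 and Myh3, which had no peak at an end.

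Starts shared with a gene on the opposite strand were counted last. Among the 34 muscle genes, 1 had a start of another protein-coding gene on the opposite strand within 1 kb, and it was Myl4. In the background 9.62% of genes had such a neighbour. Of those 1680 genes 24.5% had a combined region at a start, against 5.48% of the 15777 without one. The comparison was added after the Myl4 locus had been seen.

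Genes that act on or with the muscle genes were described from a list of 126 related genes. Of these, 7 (5.56%) had a combined region at an end, against the 7.0% given above. FOXO and AKT signalling had 3 of 20: Pik3ca, a catalytic subunit of phosphoinositide 3-kinase, Pdpk1, the kinase that activates AKT, and Gsk3b, a kinase that AKT inhibits. The atrophy ligases and their partners had 2 of 14, Stub1 and Mul1, both ubiquitin ligases. Transcription partners had 2 of 31, Eya3 and Eya4, co-activators of homeobox factors such as Six4. Myostatin and TGF-beta signalling had 0 of 14, and a further 47 sarcomere and membrane genes had 0 of 47, in the combined list and in each replicate.

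Gsk3b carried the strongest of these regions, chr16:38087137-38092163, with 93 fragments and a fold of 17.4 in replicate 1 and 107 fragments and a fold of 22.2 in replicate 2 (mean 19.8 ± 3.4, SD, n = 2), at an IDR of 0.355. At Pdpk1 the region chr17:24073269-24073754 had 60 and 64 fragments (fold 11.5 ± 2.6, SD, n = 2) and an IDR of 0.00912, but its summit was closer to an end of Kctd5 (77 bp) than of Pdpk1 (118 bp). Eya3 (fold 11.1 ± 2.0, SD, n = 2) and Eya4 (12.6 ± 2.3, SD, n = 2) had IDRs of 0.0148 and 0.0105. Pik3ca was weaker, with folds of 5.54 and 5.59 and 24 and 37 fragments. Stub1 (folds 7.14 and 7.12) and Mul1 (12.1 and 6.0) had IDRs of 0.200 and 0.224. With a score of at least 540, 3 of the 126 related genes (2.38%) were left, namely Eya3, Eya4 and Pdpk1, against 3.14% of other genes.

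In replicate 2, 14 of the 126 related genes (11.1%) had a peak at an end, close to the 11.3% of other genes. The 7 that were not in the combined list include Akt2, Usp19, Id3 and Six5. Akt2, one of the AKT kinases, had 15 fragments 63 bp from its end by summit. It had no peak at an end in replicate 1, as Foxo4 had none. Prmt5 had a peak in replicate 1 only, with 15 fragments.

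**Figure D5:**
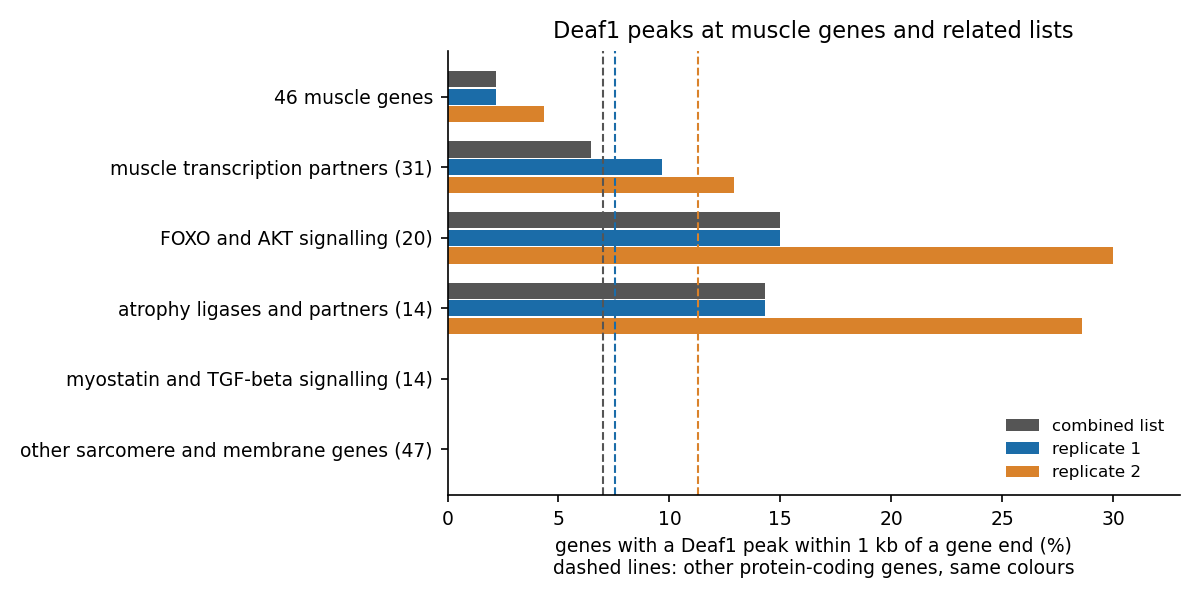
Percent of genes with a Deaf1 peak within 1 kb of a gene end (horizontal axis) for the 46 muscle genes and 5 related lists (rows, list size in brackets), in the combined list and each replicate; dashed lines give the other protein-coding genes in the same colours. The muscle genes stand at 2.17%, 2.17% and 4.35%, left of the lines at 7.0%, 7.54% and 11.3%, FOXO and AKT signalling at 15.0%, 15.0% and 30%, and 2 lists are at 0.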

How the data were processed

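Reads were processed by the authors. The submitters' processing notes name FastQC 0.11.8, BWA 0.7.17-r1198, MACS2 2.1.2 and the build mm10, without roles or settings. Per the labels, chromatin was fixed with formaldehyde and sheared by sonication, yet the same text calls the method native; the conflict was not settled. The deposited fold enrichment is a ratio, ChIP over local background, and the deposited p and q are −log10 values. The deposited IDR score belongs to the pair of libraries, as does the deposited −log10 IDR. Another 6 columns of the combined list were not used. The deposited summit position, in the column with no unit of its own (other), is an offset in bp.

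Fragments and background at each summit were recovered from fold = (pileup + 1)/(background + 1) and the Poisson p, and the fit left at most 5.1e-05 of −log10 p unexplained. The recovery and the distances were tested on simulated data. Distances ran from any base of a peak to the span ends of RefSeq genes (GRCm38.p6, no strand). Annotated starts came from the RefSeq promoter table, which held 34 of the 46 genes. Python 3.11.15, NumPy 2.4.6, pandas 2.3.3 and SciPy 1.17.1 were used. No test was run, since there is 1 group of 2 libraries. Where nothing says that the replicates came from separate cultures, their spread may be technical.

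The genes named in full are those with a peak at an end or in the span, the 10 others closest to a replicate 2 peak, and Myod1, Myog, Foxo1, Foxo3, Foxo4, Fbxo32, Trim63 and Mstn; further genes were named after their values were seen. The members and lists were chosen with earlier results of these data known. The alternatives covered other windows, a −log10 q of at least 5, summits in place of whole peaks, an IDR score of at least 540, annotated starts, and each replicate alone.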

Additional observations from a re-analysis of the deposited data

How the results depend on the processing

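The muscle genes with a combined region at an end stayed at 1 with windows of 2 and 5 kb, a −log10 q of at least 5, summits in place of whole peaks, and annotated starts. The shares of other genes under these settings were, in that order, 7.59%, 8.79%, 6.30%, 6.90% and 7.32%. At an IDR score of at least 540 the muscle genes fell to 0, both at gene ends and in the span, and the related genes fell from 7 to 3. At gene ends, 3.14% of other genes had a region of that score. With 1 replicate left out, the muscle genes with a peak at an end ranged from 1 to 2, those with a peak in the span stayed at 1, the related genes ranged from 8 to 14, and the fold at the shared start of Myl4 and Cdc27 from 24.7 to 32.5 (an alternative added after seeing the data). The higher counts are those of replicate 2, where the share of other genes with a peak at an end was also higher (11.3% against 7.54%). At a −log10 q of at least 5, the muscle genes bound in replicate 2 went from 2 to 1, Foxo4 being lost, against 10.1% of other genes. Requiring 2 copies of TTCG reduced the muscle genes from 16 to 9. The median distance to a replicate 2 peak was 195 kb as reported, over the 46 genes. From annotated starts, known for 34 genes only, it was 179 kb, so the set of genes differs as well. No paired analysis was possible because values of the input libraries were not analysed here and the ChIP libraries form 1 group. Counting error limits single peaks of 13 to 25 fragments, such as those at Foxo4 and Mef2d.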

Other observations

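Muscle microRNA genes were looked at after the protein-coding genes had been seen. Of 10 microRNA genes searched by name, 4 were matched in the RefSeq table: Mir206 and Mir133b, which lie next to each other, Mir208b, inside the span of Myh7, and Mir499. None of the 4 had a Deaf1 peak of any list within 1 kb. Of protein-coding genes other than the 46, 7.0% had a combined region at an end and 11.3% had a replicate 2 peak there. With only 4 genes, the count cannot show a difference from those shares. In replicate 2 the nearest peak was 141 kb from Mir206, 137 kb from Mir133b, 39.3 kb from Mir208b and 204 kb from Mir499. In replicate 1 the nearest was 4022 kb, 4026 kb, 39.6 kb and 307 kb away.

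Tpm3, a tropomyosin on the list of related genes that is also made outside muscle, had no peak at an end but a combined region inside its span, chr3:90079505-90079704. It had 18 fragments and a fold of 5.23 in replicate 1, 28 fragments and a fold of 4.97 in replicate 2, and an IDR of 0.513. Of the 47 further sarcomere and membrane genes it was the 1 with a combined region in the span (2.13%), against 6.68% of other protein-coding genes.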
